A study of Homo sapiens with 6 samples.

Results

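The genes described here are the receptors and cytokines of the gp130 family that were listed by symbol for this purpose: the receptor genes IL6ST, IL6R, LIFR, OSMR, CNTFR and IL11RA and the ligand genes IL6, LIF, IL11 and CLCF1. They are 10 of the 27259 genes with a line in at least 1 library table, and each was found by its Entrez gene ID. RNA-seq was made from U87MG cells, a human line derived from a glioblastoma, after a lentiviral infection given as 24 hours. The paper's methods give 24 hours as the time of exposure to virus. Whether RNA was taken at its end or later is not clear from the sources used here. The U87MG-control group (3 libraries) received a control lentivirus and the U87MG-LMO2 group (3 libraries) received a lentivirus with human LMO2, whose vector name includes the CMV promoter in the study's methods. All cells were grown in DMEM with fetal bovine serum and antibiotics, and the contents of the control vector were not stated in the labels. The labels do not say that the libraries of a group came from separate cultures, so the p-values measure only the spread between these libraries, which may be technical.

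Most cytokines of this family first bind a receptor of their own on the cell surface, and the bound complex then recruits gp130, the signalling chain that IL6ST encodes. Gp130 activates JAK kinases, which phosphorylate STAT3, and the pathway induces its own inhibitor SOCS3. IL6 and IL11 use IL6R and IL11RA as binding chains, LIF signals through LIFR paired with gp130, oncostatin M through OSMR or LIFR, and CLCF1 through CNTFR, LIFR and gp130. In glioblastoma the IL6 and STAT3 axis is known for its part in growth and in the mesenchymal expression state.

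The libraries held between 11428432 and 17892955 expected counts. LMO2 itself, a transcriptional cofactor, had between 5 and 11 counts in the control libraries and between 4503 and 14570 in the U87MG-LMO2 libraries, and replicate 3 of U87MG-LMO2 held the most. The labelled cell line was checked on markers. The 7 mesenchymal glioma genes summed to 7412 to 7673 FPKM in the control libraries and to 7502 to 8867 FPKM in the U87MG-LMO2 libraries. Most of this sum was VIM, at 5121.74 to 5210.44 FPKM in U87MG-control and 5136.52 to 5642.08 FPKM in U87MG-LMO2. NES, of the same list, lay between 6.64 and 8.71 FPKM. Of the 5 astrocyte markers, S100B, AQP4 and ALDH1L1 were at or near 0, while the glutamate transporter SLC1A3 was expressed, between 19.9 and 42.1 CPM, and GFAP was left out because its values were damaged. Of the 37 mesenchymal, astrocyte, neuron, oligodendrocyte, endothelial, epithelial and leukocyte markers 20 could be tested. Of these, 0 passed in edgeR and 0 in DESeq2, against 7.48% and 10.9% of all genes tested. In edgeR, 2 had an unadjusted p under 0.05, against 13.8% higher and 11.9% lower among all genes tested. The neuron list summed to 18.21 to 21.75 FPKM in U87MG-control and to 19.58 to 21.61 FPKM in U87MG-LMO2. Most of this was SNAP25 (24.81 to 34.04 CPM) and GAD1 (11.02 to 14.59 CPM). The oligodendrocyte, endothelial and epithelial lists each summed to at most 4.41 FPKM. The leukocyte list summed to 212.5 to 283.7 FPKM and to 157.4 to 283.0 FPKM in the 2 groups. Nearly all of this was CD68, at 212.19 to 283.31 FPKM in U87MG-control and 157.02 to 282.6 FPKM in U87MG-LMO2. PTPRC, of the same list, lay between 0.44 and 0.60 CPM. These are bulk RNA values, in which fewer cells with a transcript and less of the transcript per cell cannot be told apart.

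The promoters of IL6ST and LIFR are shown because these receptor genes carry a main result, and they come from RefSeq on GRCh38.p14. Each run is the 250 bases before an annotated start site, read 5′ to 3′ on the strand of the gene, with capitals for a match to a searched motif. The searched motifs were a STAT3-type motif of TTC and GAA with any 3 bases between (TTCNNNGAA), the same with any 4 bases between, the AP-1 letters TGANTCA, and an NF-kB motif of GGGA and TTTCC with any 1 base between, on both strands, in the window from 250 bases before to 50 bases after the start. The IL6ST promoter, at chr5:55994964-55995213 on the minus strand, held none of the 4 motifs. LIFR had 3 annotated promoters, and the pair at chr5:38595406-38595655 and chr5:38557468-38557717 on the minus strand each held a STAT3-type match, which begins at position -165 and -182 from the start. The remaining LIFR promoter, at chr5:38556647-38556896 on the minus strand, held none of the 4 motifs and is not printed.
IL6ST: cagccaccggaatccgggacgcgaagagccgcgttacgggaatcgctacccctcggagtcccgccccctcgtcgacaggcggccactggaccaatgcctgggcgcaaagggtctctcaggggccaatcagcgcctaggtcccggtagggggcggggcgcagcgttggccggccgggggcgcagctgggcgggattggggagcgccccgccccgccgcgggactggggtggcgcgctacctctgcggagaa
LIFR at position -165: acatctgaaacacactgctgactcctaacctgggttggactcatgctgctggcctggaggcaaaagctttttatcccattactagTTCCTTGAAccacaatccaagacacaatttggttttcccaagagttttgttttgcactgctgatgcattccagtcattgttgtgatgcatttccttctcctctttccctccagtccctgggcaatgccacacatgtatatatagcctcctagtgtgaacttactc
LIFR at position -182: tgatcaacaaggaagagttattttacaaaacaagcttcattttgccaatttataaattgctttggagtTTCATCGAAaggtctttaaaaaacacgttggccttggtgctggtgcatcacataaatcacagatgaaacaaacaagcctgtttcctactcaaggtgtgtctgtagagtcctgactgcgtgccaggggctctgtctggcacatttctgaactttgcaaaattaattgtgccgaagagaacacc
The IL6 promoter, at chr7:22726950-22727199 on the plus strand, is shown because IL6 is the family's best known inducible ligand. Its level also stood apart in U87MG-LMO2 replicate 3 (4.52 CPM, against 0.984 to 1.74 CPM in the other libraries), on few reads.
IL6: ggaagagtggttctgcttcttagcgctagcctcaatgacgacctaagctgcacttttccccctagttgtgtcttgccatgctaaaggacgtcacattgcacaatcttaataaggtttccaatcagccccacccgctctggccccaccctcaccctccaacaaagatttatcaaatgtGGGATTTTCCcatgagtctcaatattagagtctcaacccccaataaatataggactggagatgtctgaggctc
Its NF-kB match begins at position -73. Across all 35116 annotated promoters of the same length, the STAT3-type motif was found in 7.66% with 3 bases between and in 6.44% with 4, the AP-1 motif in 7.71% and the NF-kB motif in 0.558%. AP-1 matches were found in the windows of IL6R, OSMR and IL11, where they begin at positions 37, 3 and -96, and the windows of CNTFR and IL11RA held no match. These matches describe letters in a window and not binding. No promoter was found in the table for LIF or CLCF1.

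The levels of the family were compared with each other per length, as FPKM. In U87MG-control the highest mean levels of the family were those of IL6ST (34.8 ± 5.56 FPKM, SD, n = 3), OSMR (25.1 FPKM) and CLCF1 (24.3 FPKM), and the ranges of neighbours in this order overlapped. IL11RA (8.96 FPKM) and IL6R (6.75 FPKM) came next, below the range of CLCF1, and their ranges overlapped. IL11 (2.76 FPKM), LIFR (2.53 FPKM) and LIF (2.38 FPKM) overlapped with each other, followed by IL6 at 0.920 FPKM and CNTFR at 0.117 FPKM, each below the range of its upper neighbour. The transcripts of the binding chains for IL6 and IL11 were thus both measured well above 0, while that of CNTFR was close to the limit of detection.

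In U87MG-LMO2 the order at the top was different. CLCF1 had the highest FPKM of the family in all 3 U87MG-LMO2 libraries, at a mean of 42.6 FPKM, and its range lay above that of OSMR (22.4 FPKM). IL6ST had the highest FPKM in all 3 control libraries and ranked 3 in all 3 U87MG-LMO2 libraries, at a mean of 19.3 ± 2.88 FPKM, and its range overlapped that of OSMR. IL11RA and IL6R ranked 4 and 5 in all 6 libraries, and CNTFR ranked 10 in all 6. Lower in the order, IL11 (3.32 FPKM), LIF (2.39 FPKM), IL6 (1.77 FPKM) and LIFR (1.62 FPKM) followed, with overlapping ranges between neighbours.

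**Figure D1:**
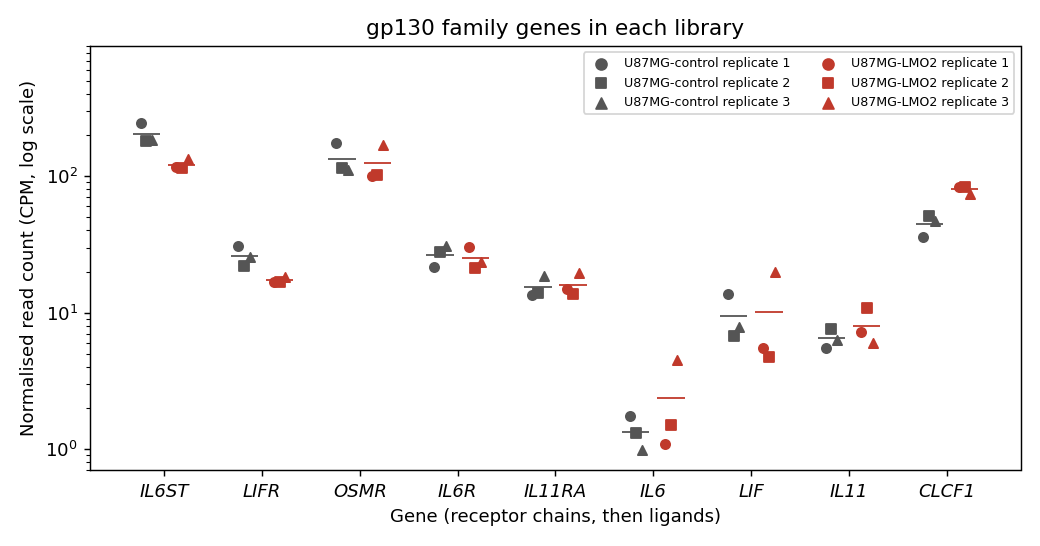
Normalised read counts (CPM, log axis) of 9 gp130 family genes in each of the 6 libraries, with a line at each group's mean; CNTFR is left out because it had 4 or fewer counts in every library. The U87MG-LMO2 libraries lay below all control libraries for IL6ST and LIFR and above them for CLCF1, and the groups overlapped for the others.

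The levels of 9 of the 10 genes could be tested between the groups, and CNTFR was below the filter on low counts. In the edgeR quasi-likelihood test 3 of the 9 passed an adjusted p of 0.05, against 7.48% of the 16092 genes tested. CLCF1 was higher in U87MG-LMO2, as were 4.72% of all genes tested, and IL6ST and LIFR were lower, as were 2.75%. The same 3 genes had libraries that did not overlap between groups in CPM, a pattern seen in 34.1% of all genes tested, 17.5% in the higher and 16.6% in the lower direction. The median log2 fold change of the 9 was 0.07, against -0.01 over all genes.

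IL6ST, the shared signalling chain, fell in U87MG-LMO2. Its normalised read counts were 243.4, 180.1 and 184.0 CPM in U87MG-control and 116.0, 115.0 and 133.9 CPM in U87MG-LMO2. The control libraries spread over a wider range than the U87MG-LMO2 libraries, and the groups did not overlap. The mean went from 202.5 ± 35.5 to 121.6 ± 10.6 CPM (SD, n = 3 each), which is 1.66-fold lower (log2 fold change -0.73, SE 0.14, edgeR adjusted p = 0.0207). The direction was the same whichever library was left out, but the adjusted p rose to 0.0637, 0.0579 and 0.0719 without control replicate 1, 2 or 3 and to 0.0909 without U87MG-LMO2 replicate 1. In these 4 fits 1.03%, 1.08%, 0.875% and 1.38% of all genes passed, against 7.48% with all 6 libraries, and the same shares apply where LIFR and CLCF1 lost their calls in these fits.

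LIFR, the second signalling chain of the LIF, oncostatin M and CLCF1 receptors, also fell. It had 30.8, 22.0 and 25.7 CPM in the control libraries and 16.8, 16.8 and 18.3 CPM in the U87MG-LMO2 libraries. As for IL6ST, control replicate 1 held the highest level and the U87MG-LMO2 libraries were close together. The mean went from 26.2 ± 4.42 to 17.3 ± 0.875 CPM (SD, n = 3 each), 1.51-fold lower (log2 fold change -0.59, SE 0.15, edgeR adjusted p = 0.0443). With the replicate number as a block, a fit in which 3.58% of all genes passed, the adjusted p was 0.0828, and it passed only without U87MG-LMO2 replicate 3 (0.0192) among the fits that left out a library. The others gave 0.136, 0.0701 and 0.149 without control replicate 1, 2 or 3 and 0.15 and 0.0807 without U87MG-LMO2 replicate 1 or 2.

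Both receptor genes that fell have transcripts poor in G and C, and transcript composition moved with the comparison across the whole table. The longest transcripts of IL6ST and LIFR were 36.6% and 36.2% GC, in the lowest of 10 equal bins of genes by GC content (30.2% to 38.6%), where the median log2 fold change of all tested genes was -0.22. The median rose with GC content through all 10 bins, to 0.26 in the highest. CLCF1, at 57.1% GC, was in bin 8, whose median was 0.12. After a correction for GC content, with which 6.35% of all genes passed, the log2 fold change was -0.49 (SE 0.16, edgeR adjusted p = 0.102) for IL6ST, -0.35 (SE 0.15, adjusted p = 0.207) for LIFR and 0.72 (SE 0.14, adjusted p = 0.0251) for CLCF1. Thus only CLCF1 passed in both fits, and the part of GC content in the fall of IL6ST and LIFR was not tested further.

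OSMR encodes the chain that binds oncostatin M together with gp130. It had 174.7, 114.2 and 110.6 CPM in U87MG-control and 100.2, 102.4 and 170.3 CPM in U87MG-LMO2. A single library in each group was high, control replicate 1 and U87MG-LMO2 replicate 3, and the groups overlapped. The means were 133.2 ± 36.03 and 124.3 ± 39.9 CPM (SD, n = 3 each), a difference within the spread (log2 fold change -0.10, SE 0.24, edgeR adjusted p = 0.829).

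The binding chains of IL6 and IL11 did not pass the test. IL6R had 21.4, 27.8 and 30.7 CPM in the control libraries and 30.3, 21.2 and 23.6 CPM in the U87MG-LMO2 libraries (log2 fold change -0.09, SE 0.18, edgeR adjusted p = 0.777). IL11RA had 13.5, 13.9 and 18.6 CPM in the control libraries and 14.9, 13.6 and 19.6 CPM in the U87MG-LMO2 libraries (log2 fold change 0.07, SE 0.19, edgeR adjusted p = 0.848). In both genes the ranges of the groups covered each other nearly in full. The count of CNTFR, the binding chain for CLCF1, was 2, 3 and 4 in the control libraries and 3, 1 and 0 in the U87MG-LMO2 libraries. A difference in CNTFR was not detectable at this depth, where a count of 0 allows up to 3 counts by counting error alone.

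**Figure D2:**
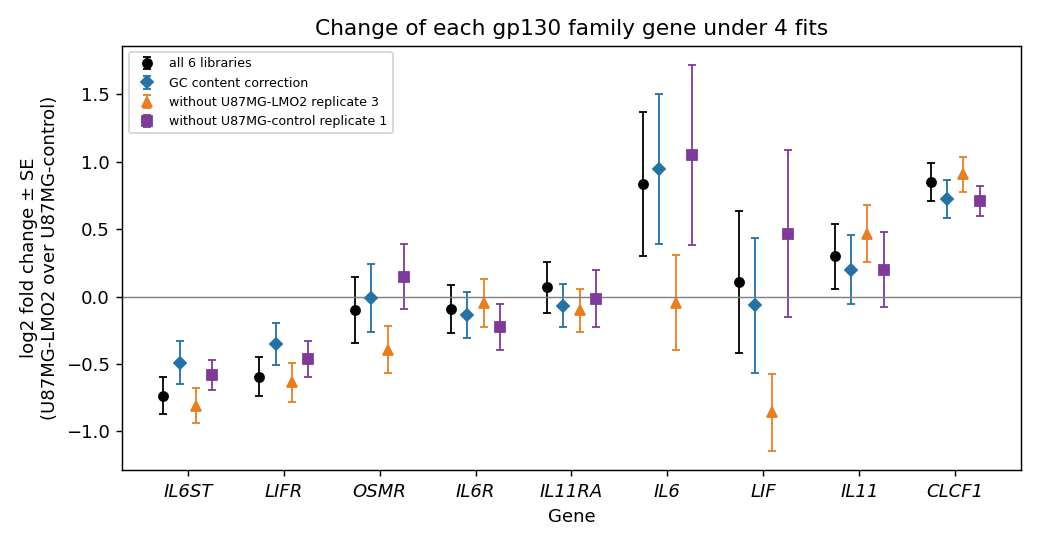
Log2 fold change of U87MG-LMO2 over U87MG-control ± SE for 9 gp130 family genes from edgeR fits on all 6 libraries, with a GC content correction, without U87MG-LMO2 replicate 3 and without U87MG-control replicate 1. IL6ST and LIFR stay below 0 and CLCF1 above 0 in all 4 fits, while LIF runs from -0.86 to 0.47.

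Among the ligands, CLCF1 rose. This B cell stimulating cytokine had 35.7, 51.0 and 47.1 CPM in U87MG-control and 83.8, 83.5 and 73.8 CPM in U87MG-LMO2. Every U87MG-LMO2 library was above every control library. The mean went from 44.6 ± 7.99 to 80.3 ± 5.67 CPM (SD, n = 3 each), 1.80-fold higher (log2 fold change 0.85, SE 0.14, edgeR adjusted p = 0.0140). The adjusted p was 0.0707 without control replicate 3 and 0.0646 without U87MG-LMO2 replicate 1.

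LIF, the ligand of the LIFR and gp130 pair, had 13.6, 6.79 and 7.79 CPM in the control libraries and 5.55, 4.70 and 19.8 CPM in the U87MG-LMO2 libraries. U87MG-LMO2 replicate 3 was the highest of the 6 and the other U87MG-LMO2 libraries the lowest. The log2 fold change was 0.11 (SE 0.52, edgeR adjusted p = 0.916), and -0.86 without U87MG-LMO2 replicate 3 (adjusted p = 0.0744). IL6, the inflammatory cytokine that names the family, had 1.74, 1.31 and 0.984 CPM in U87MG-control and 1.10, 1.5 and 4.52 CPM in U87MG-LMO2. The same library stood apart here, and the log2 fold change of 0.83 (SE 0.53, edgeR adjusted p = 0.361) became -0.04 without it (adjusted p = 0.95). These IL6 values rest on few reads, between 13.16 and 22.01 expected counts in 5 libraries and 75.17 in U87MG-LMO2 replicate 3. IL11, a ligand of IL11RA, had 5.55, 7.60 and 6.28 CPM in the control libraries and 7.20, 10.8 and 5.96 CPM in the U87MG-LMO2 libraries (log2 fold change 0.30, SE 0.24, edgeR adjusted p = 0.478). Its groups overlapped. The log2 fold change stayed above 0 whichever library was left out, but it fell to 0.02 without U87MG-LMO2 replicate 2, the highest of the 6.

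The high OSMR and LIF of control replicate 1 and U87MG-LMO2 replicate 3 went together with other genes. CEBPD and CHI3L1, genes of the acute phase and mesenchymal responses, lie outside the rule for named genes and were chosen after their values were seen. CHI3L1 had 242.0, 95.4 and 92.4 CPM in U87MG-control and 101.5, 86.5 and 435.6 CPM in U87MG-LMO2, and CEBPD had 16.7, 9.71 and 8.78 CPM and 9.09, 9.20 and 27.1 CPM. The same library of each group was therefore the highest in all 4 genes. Relative to the mean of all 6 libraries, U87MG-LMO2 replicate 3 was at 1.32 for OSMR, 2.04 for LIF, 2.43 for IL6, 2.02 for CEBPD and 2.48 for CHI3L1. LMO2 was likewise highest in this library (877.9 CPM, compared with 333 and 307 CPM in replicates 1 and 2), and its part in these levels was not tested. Without U87MG-LMO2 replicate 3, 14.7% of all genes passed the test, and the adjusted p was 0.00456 for IL6ST, 0.0192 for LIFR and 0.00285 for CLCF1.

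**Figure D3:**
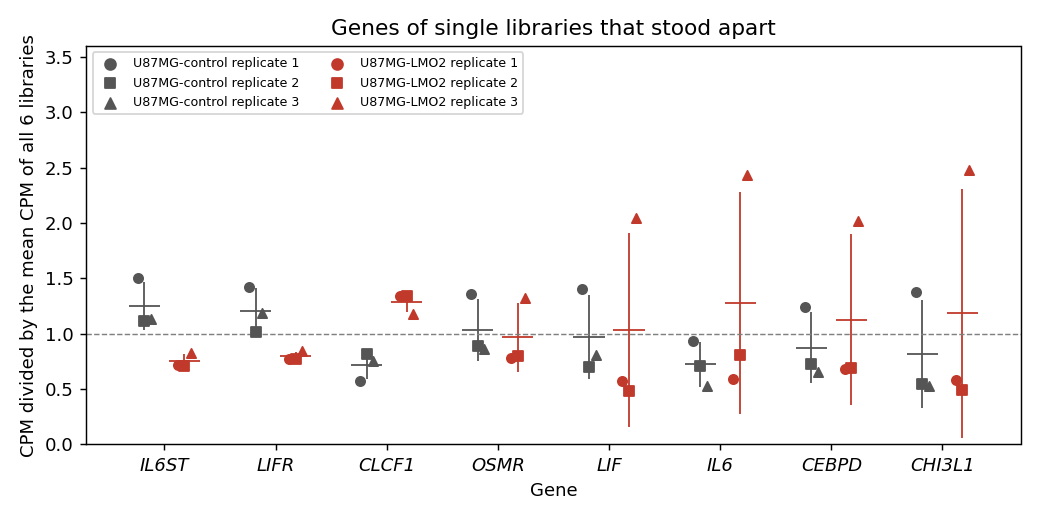
CPM of each library divided by the mean CPM of all 6 libraries for 6 gp130 family genes and for CEBPD and CHI3L1, with group mean and SD (n = 3). IL6ST, LIFR and CLCF1 separate by group, whereas LIF, IL6, CEBPD and CHI3L1 in U87MG-LMO2 replicate 3 lie above 2 and the other U87MG-LMO2 libraries below 1.

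Next, the ratio of each partner chain to gp130 was taken from their FPKM values in each library. All ratios share IL6ST as denominator, which fell, while OSMR, IL6R and IL11RA did not pass the test, so that the ratios restate the fall of IL6ST and are no separate evidence. OSMR was at 0.810, 0.732 and 0.605 of the IL6ST level in U87MG-control and at 1.09, 1.07 and 1.28 of it in U87MG-LMO2. Per length there was less OSMR than IL6ST in all control libraries and more in all U87MG-LMO2 libraries, but by CPM OSMR stayed below IL6ST in U87MG-LMO2 replicates 1 and 2 (100.2 against 116.0 and 102.4 against 115.0 CPM), where the deposited length of IL6ST was longest. IL11RA was at 0.194, 0.277 and 0.315 of IL6ST in the control libraries and at 0.5, 0.445 and 0.466 in the U87MG-LMO2 libraries, and IL6R was at 0.127, 0.234 and 0.238 and at 0.424, 0.278 and 0.264. The log2 ratios were higher in U87MG-LMO2 by 0.68 for OSMR, 0.87 for IL11RA and 0.71 for IL6R, with no overlap between groups (exact permutation test, two-sided, p = 0.1 each and 0.133 after Benjamini-Hochberg adjustment over 4 ratios). With 3 libraries against 3 this test cannot go below 0.1, so that no ratio could pass 0.05.

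LIFR, which fell together with IL6ST, was at 0.0736, 0.0724 and 0.0720 of IL6ST in the control libraries and at 0.0940, 0.0903 and 0.0716 in the U87MG-LMO2 libraries (log2 difference 0.25, exact permutation test, two-sided, p = 0.2). Here the groups overlapped, and the 3 control values differed by little although their IL6ST levels did not. The ligand CLCF1 was at 0.480, 0.948 and 0.742 of IL6ST in U87MG-control and at 2.63, 2.53 and 1.63 in U87MG-LMO2. Per length, the CLCF1 transcript was thus below that of gp130 in every control library and above it in every U87MG-LMO2 library. By CPM, CLCF1 stayed below IL6ST in every U87MG-LMO2 library (83.8 against 116.0, 83.5 against 115.0 and 73.8 against 133.9 CPM). CPM values are not scaled to length, and the deposited lengths in these libraries were 1857 to 1858 bases for CLCF1 and 5407 to 6665 bases for IL6ST.

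**Figure D4:**
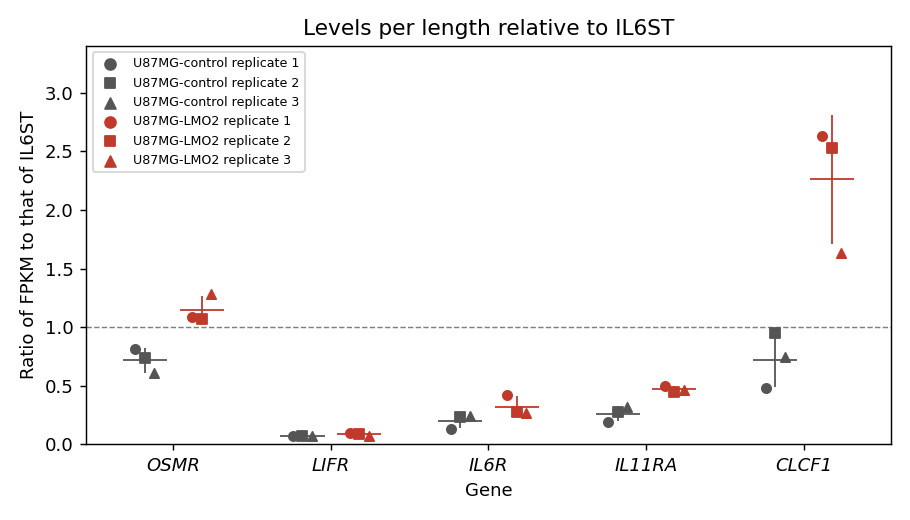
FPKM of 4 receptor chains and of CLCF1 divided by the FPKM of IL6ST in the same library, with group mean and SD (n = 3) and a dashed line at 1. OSMR and CLCF1 lie below 1 in the control libraries and above 1 in the U87MG-LMO2 libraries.

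Since an FPKM value depends on the transcripts that a gene is assigned to, the deposited lengths were compared after the values had been seen. The length of IL6ST, weighted over its transcripts, was 5982, 6113 and 5307 bases in the control libraries and 6665, 6385 and 5407 bases in the U87MG-LMO2 libraries (exact permutation test, two-sided, p = 0.5). It was shorter in replicate 3 of both groups. For IL6 the length was 1365, 1395 and 1948 bases and 1423, 1296 and 1263 bases (exact permutation test, two-sided, p = 0.3). The length of CLCF1 lay between 1850 and 1858 bases in all 6 libraries.

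Several of these genes lie beside or over other transcripts, and it is not known if the counting used strand. LIFR-AS1, antisense to LIFR, had between 33.63 and 52.54 counts, against 246 to 355 counts for LIFR. IL6ST-DT, the divergent transcript at IL6ST, had 54.17, 67.28 and 84.36 counts in U87MG-control and 89.88, 94.62 and 61.43 counts in U87MG-LMO2, far below the 1687 to 2806 counts of IL6ST. OSMR overlaps RICTOR, a subunit of the mTORC2 kinase complex, which had 218 to 278 counts. The pseudogenes IL6STP1 and IL6RP1 had no line in the tables, so reads shared with them cannot be judged.

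By a rule set for the naming of genes, the 3 genes whose levels across the 6 libraries were most like that of IL6ST were taken from the 9656 genes with a mean of at least 10 CPM. They were ADAM23, a disintegrin family surface protein (Pearson's r = 0.999 on log2 CPM), EIF4B, a translation initiation factor (0.995), and ZFYVE9, an anchor of SMAD proteins (0.994). ADAM23 had 37.9, 29.6 and 30.3 CPM in U87MG-control and 19.8, 19.6 and 22.9 CPM in U87MG-LMO2. Of the family, LIFR was most like IL6ST (0.982), CLCF1 ran the other way (-0.997), and OSMR (0.514), IL6R (-0.07) and IL11RA (-0.14) lay between. The libraries share their 2 groups and their depth in these values, which are a description with no test.

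The other genes of the pathway were counted in 6 lists of 67 genes, of which 58 could be tested. In all, 4 were higher and 1 was lower in U87MG-LMO2, against 4.72% and 2.75% of all genes, and the median log2 fold change was 0.08. Libraries did not overlap between groups for 13 higher and 9 lower genes of the 58, against 17.5% and 16.6% of all genes tested, which is near the same share. The 5 that passed are described by their roles, and their calls depended on single libraries. CTF1, SOCS3, PIM1 and FOSL2 all missed the threshold without any 1 of the control libraries, with adjusted p from 0.0613 to 0.147, and ADAM17 passed only without U87MG-LMO2 replicate 3 among the fits that left out a library (0.0152 against 0.0779 to 0.157). Without U87MG-LMO2 replicate 1, CTF1 (0.08), PIM1 (0.123) and FOSL2 (0.0923) missed it too, and with the replicate block only SOCS3 passed (0.0282). Calls fell over the whole table in these fits. Without control replicate 1, 2 or 3, 1.03%, 1.08% and 0.875% of all genes passed, against 7.48% with all 6 libraries. The shares were 1.38% without U87MG-LMO2 replicate 1 and 3.58% with the block.

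Of the 9 other ligands and receptors of the family, 4 could be tested. CTF1, the ligand cardiotrophin 1, had 4.25, 4.46 and 3.78 CPM in the control libraries and 6.77, 6.82 and 8.92 CPM in the U87MG-LMO2 libraries (log2 fold change 0.85, SE 0.18, edgeR adjusted p = 0.0323). Like CLCF1, it was higher in every U87MG-LMO2 library. Unlike CLCF1, it did not pass with the GC content correction (log2 fold change 0.61, edgeR adjusted p = 0.0536). The receptor genes IL31RA (log2 fold change -0.44, edgeR adjusted p = 0.0743) and IL27RA (-0.45, adjusted p = 0.183) did not pass. The ligand genes OSM and CNTF were below the filter, and IL27 and IL31 had no line.

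None of the 12 transducers, which include the JAK kinases and STAT proteins, passed the edgeR test in either direction, and none passed in DESeq2, which called 10.9% of all genes. At an unadjusted p under 0.05, 2 were higher and 2 lower, against 13.8% and 11.9% of all genes tested, and the median log2 fold change was 0.00. Examples were the adaptor SHC1 (0.08), the kinase TYK2 (0.29) and the phosphatase PTPN11 (-0.16). Of the 8 inhibitors that could be tested, SOCS3, which blocks JAK kinases at gp130, rose in U87MG-LMO2 (log2 fold change 0.84, edgeR adjusted p = 0.0130). The other 7 did not pass, among them the phosphatase PTPN1 (-0.18) and the STAT inhibitors PIAS3 (0.30) and PIAS1 (-0.14).

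Of the 6 genes that process the receptors, ADAM17, the protease that releases soluble IL6R, fell. It had 42.6, 35.0 and 38.7 CPM in U87MG-control and 27.4, 27.1 and 29.1 CPM in U87MG-LMO2 (log2 fold change -0.48, SE 0.11, edgeR adjusted p = 0.0422). With the GC content correction no pathway gene passed as lower. ADAM10, which also sheds receptors, had a log2 fold change of 0.10 and the protease BACE1 one of 0.51 (edgeR adjusted p = 0.0546).

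Of the 16 genes on the STAT3 target list that could be tested, 1 passed. Among all genes tested 7.48% passed, 4.72% as higher, so 1 of 16 is near the same share. SOCS3, which the paper uses as a STAT3 target gene, is not on the STAT3 target list. It was counted with the inhibitors, where it passed (log2 fold change 0.84, edgeR adjusted p = 0.0130). PIM1, a survival kinase induced by STAT3, had 4.51, 4.89 and 4.24 CPM in the control libraries and 8.85, 6.82 and 7.65 CPM in the U87MG-LMO2 libraries (log2 fold change 0.77, SE 0.17, edgeR adjusted p = 0.0346). With the GC content correction PIM1 did not pass (log2 fold change 0.65, edgeR adjusted p = 0.0513). CCND1 (-0.14) and VEGFA (-0.29), cell cycle and angiogenic targets, did not pass. The median of the list was 0.14, against -0.01 over all genes tested. Of the 12 transcription factors and other inducers of the ligands, FOSL2, an AP-1 subunit, rose from 348, 367 and 375 CPM to 518, 469 and 626 CPM (log2 fold change 0.57, SE 0.12, edgeR adjusted p = 0.0308). FOSL1 (0.08), JUN (0.16) and HIF1A (0.39) did not pass.

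**Figure D5:**
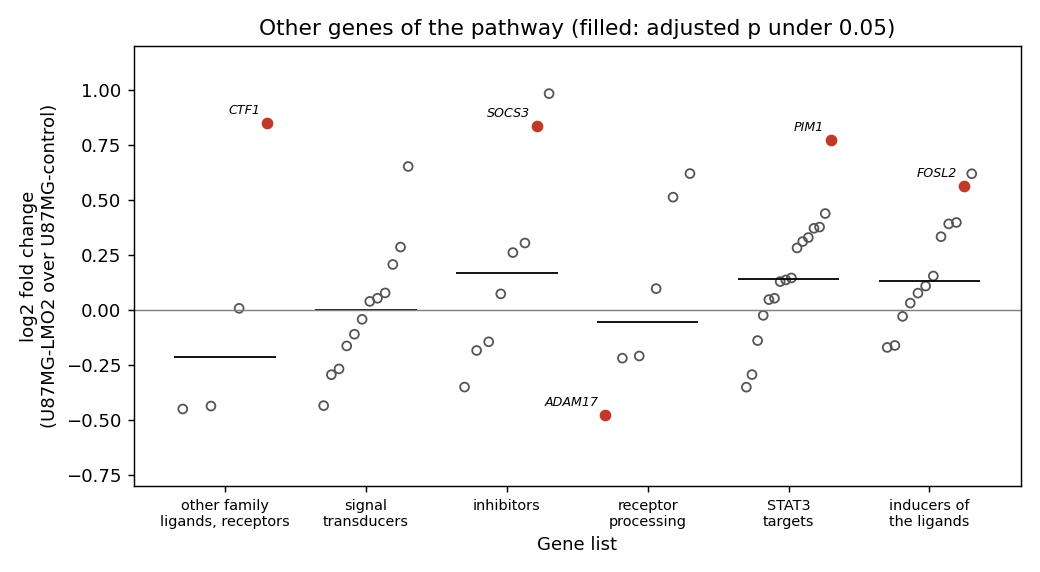
Log2 fold change of U87MG-LMO2 over U87MG-control for the 58 tested genes of 6 pathway lists, each point a gene and each line the median of a list; filled points passed an edgeR adjusted p of 0.05. The 5 filled points are CTF1, SOCS3, PIM1 and FOSL2 above 0 and ADAM17 below 0.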

How the data were processed

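Total RNA of U87MG cells was sequenced by a service company, with 3 libraries per group. For each library the authors deposited expected counts per gene, estimates of reads without normalization that can hold fractions, and FPKM values, which are scaled to transcript length and mapped reads, with the length of each gene weighted over its transcripts. The submitters' processing notes name Bowtie2, BWA and GRCh38.p12, and the counting program, its version and its use of strand are not given in the sources used here. The authors also deposited a comparison table with mean FPKM per group, log2 ratios and probabilities, which was used only to check the library tables. The means matched within 0.001 FPKM, except for 134 genes of U87MG-LMO2 replicate 3, whose table was damaged. These genes were left out of the tests. No gp130 family gene was among them, but the astrocyte marker GFAP was. Genes with no line were taken as 0 counts.

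Expected counts were rounded to whole numbers, filtered by filterByExpr, scaled by TMM and tested by edgeR's quasi-likelihood test (edgeR 4.0.16, R 4.3.3) on 16092 genes with Benjamini-Hochberg adjustment, and a gene was called at an adjusted p under 0.05. The CPM values use the TMM library sizes. The SE is the log2 fold change divided by the square root of F. DESeq2 1.42.0, limma 3.58.1 on log2(FPKM + 1) and log2(FPKM + 0.1), other filters and scalings, a replicate block, leaving out each library and a GC content correction were alternatives. The GC correction used a lowess curve (span 0.3) on the longest GENCODE transcript, known for 89.8% of the tested genes. Gene symbols were matched to RefSeq for 89.6% of genes, and promoters were found for 8 of the 10 family genes. The scripts were tested on simulated data.

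The family genes, pathway lists and marker lists were chosen with earlier results of these data known. The named genes were all 10 family genes, the pathway genes that passed the test, up to 3 of each list that did not (those with the highest mean CPM), and the 3 genes most like IL6ST. The bins of GC content, the transcript lengths, CEBPD and CHI3L1 were also chosen after the data were seen. 1 gene of the pathway lists is not reported here. Intervals and limits cover counting error only.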

Additional observations from a re-analysis of the deposited data

How the results depend on the processing

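Over 15 alternatives, CLCF1 kept its direction and call in 13, IL6ST in 10 and LIFR in 6. The number of family genes called lower, 2 in the report, was 1 with limma on log2(FPKM + 1), 1 on log2(FPKM + 0.1), 1 with the replicate block and 0 with the GC content correction, where both had an unadjusted p under 0.05 in edgeR. Leaving out 1 library gave 0 to 2 lower and 0 to 1 higher, with 0 higher without control replicate 3 or U87MG-LMO2 replicate 1, where 0.875% and 1.38% of all genes passed. The pathway genes called higher, 4 in the report, were 7 with DESeq2, 8 with no filter and 3 with the GC correction. They were 2 with each limma fit, 1 with the replicate block and 0 to 9 when 1 library was left out. The count was 0 without any 1 of the control libraries and 9 without U87MG-LMO2 replicate 3. Those called lower, 1 in the report, were 0 with the block, 0 with the GC correction and 0 to 2 without 1 library. The cause was not tested.

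With the GC correction the log2 fold change was -0.49 for IL6ST, -0.35 for LIFR, -0.068 for IL11RA and -0.066 for LIF. For LIFR it was -0.42 and -0.60 in the limma fits and -0.58 with the block, and for LIF -0.096, -0.19 and -0.13. Without 1 library the ranges were -0.81 to -0.58 (IL6ST), -0.70 to -0.46 (LIFR), 0.71 to 0.96 (CLCF1), -0.39 to 0.15 (OSMR), -0.25 to 0.023 (IL6R), -0.10 to 0.23 (IL11RA), -0.044 to 1.19 (IL6) and -0.86 to 0.47 (LIF). IL11 kept its direction in all 15, with a range of 0.019 to 0.47 without 1 library. The ratios of OSMR, LIFR, IL6R and IL11RA to IL6ST kept theirs with CPM, with log2(FPKM + 1) and without any 1 library. The ratio of CLCF1 was not recomputed. Same-numbered libraries had correlations of deviations from their group means of -0.12, -0.0034 and -0.041. No pairing by replicate number was seen in this check, which with 3 libraries per group cannot settle whether libraries shared a preparation. With the replicate block 3.58% of all genes passed. With 3 libraries per group and few reads for IL6 and CNTFR, small differences in these genes were not detectable.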
